A study of Mus musculus with 2 samples.

Results

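Cluster 3 is a group of colonic CD4 T cells that carries only the general CD4 T cell label in the deposited annotation, with no subset name. Its members were the cells with that label and cluster number 3 at the deposited clustering resolution, which gave 2984 of 18860 cells (15.8%). The colons came from 12 Rag-/- mice, which lack mature T and B cells. Of these, 6 had received BCL-6-deficient CD4+ T cells (called KO-labelled here) and 6 had received wild-type naive CD4+, CD45RBhigh, CD25- T cells (called WT-labelled), a transfer used as a model of colitis. Cells sorted as TCRb+CD4+ carried a hashtag antibody for each mouse, and all 12 mice share 1 library, read from the 5′ end. The promoter or Cre behind the deficiency, the deleted part of Bcl6, the age of the mice and the donors of the cells are not given in the sources used here.

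CD4 T cells that enter a host that lacks T cells divide, lodge in the gut wall and differentiate into effector cells. Among these, type 2 helper cells make IL-4 and IL-13 under the factor GATA3, and cells of the inflamed gut can also make amphiregulin, a growth factor for epithelium. BCL-6 is a transcriptional repressor that is needed for follicular helper T cells.

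Bcl6 itself (chromosome 16, 23965052 to 23988852, GRCm38) was not called between genotypes in cluster 3. It averaged 85.6 ± 21.9 CPM in KO-labelled mice and 79.7 ± 6.85 CPM in WT-labelled mice (SD, n = 6 mice each), where CPM is tagged molecules (UMIs) of a gene, per 1000000 UMIs of the cluster 3 cells of a mouse. The log2 fold change was -0.04 ± 0.18 (SE, edgeR quasi-likelihood test, adjusted p = 0.958). Reads from the 5′ end may lie outside a deleted part, so this value does not check the genotype labels.

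The cells expressed the T cell genes that the sort selects. Summed over the 14 T cell identity genes, the level lay between 7184 and 8307 CPM in KO-labelled mice and between 7062 and 7704 CPM in WT-labelled mice. Markers of other cell types were low. The summed level of 3 detected B and plasma cell genes was at most 15.7 CPM in any mouse, that of 8 epithelial genes at most 19.9 CPM, and that of 7 myeloid genes between 46.0 and 159 CPM in KO-labelled mice and between 49.7 and 139 CPM in WT-labelled mice. Foxp3, which defines regulatory T cells, was at 0 in 10 of 12 mice and reached 2.61 CPM in KO-labelled mouse 1. The 6 detected natural killer and innate lymphoid genes summed to between 10.9 and 26.8 CPM in KO-labelled mice and between 17.8 and 84.5 CPM in WT-labelled mice. The 4 detected genes of CD8 and gamma delta T cells summed to between 13.8 and 38.6 CPM in KO-labelled mice and between 48.8 and 81.7 CPM in WT-labelled mice, without overlap. Most of that sum was Cd160, which activated CD4 T cells also express, while Cd8a averaged 0.409 CPM in KO-labelled mice and 4.80 CPM in WT-labelled mice. The part of these cells in the results below was not tested.

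Cluster 3 held more of the cells in KO-labelled mice. It took 8.59%, 24.8% and 38.5% of the cells of a mouse (lowest, median and highest) in KO-labelled mice, against 5.96%, 7.34% and 10.5% in WT-labelled mice. In counts, that was 2291 of 9708 cells and 693 of 9152 cells. KO-labelled mouse 4, at 8.59%, lay inside the WT-labelled range. These shares are given without a test, because genes that differ between the genotypes took part in forming the clusters.

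The cells were shallow, meaning that few molecules were captured from each. The median cell of cluster 3 had 2165 ± 107 UMIs in KO-labelled mice and 2339 ± 139 UMIs in WT-labelled mice (SD over n = 6 mice each), against 2821 ± 191 and 3013 ± 79.9 UMIs for all other cells of the same mice. Within a mouse, the cluster's median was between 0.702 and 0.845 times that of the other cells. It was the lowest of the clusters in 7 of 12 mice, and cytotoxic cells were lower in the other 5. Of the cluster 3 cells, 65.6% in KO-labelled mice and 50.8% in WT-labelled mice had 1500 to 2500 UMIs, against 31.7% and 26.0% of other cells. Hashtag antibody UMIs, which come from the cell surface and not from RNA, were nearly as many as elsewhere: 0.937 times those of the other cells on average, lower in 11 of 12 mice (exact sign-flip test over mice, two-sided p = 0.00146, a test chosen after its values were seen). The difference in genotype was smaller than that between clusters: UMIs per cell differed by -174 (exact permutation test, two-sided p = 0.0390, adjusted p = 0.0902 over 5 measures) and did not pass. It passed without KO-labelled mouse 6 or without WT-labelled mouse 4 (adjusted exact p = 0.0325 for each). Cells were then thinned to the same 1500 UMIs, leaving out 213 shallower cells of KO-labelled mice and 60 shallower cells of WT-labelled mice. At that depth, genes per cell were higher in KO-labelled mice, at 817 ± 6.51 against 795 ± 6.89. This difference passed (exact permutation p = 0.00216, the smallest that 6 against 6 allow, adjusted p = 0.0108), with all KO-labelled mice above all WT-labelled mice. Without thinning, genes per cell were 1060 ± 44.2 in KO-labelled mice and 1077 ± 33.6 in WT-labelled mice (exact permutation p = 0.461), and the percent of mitochondrial UMIs (adjusted p = 0.0902) and the doublet score (adjusted p = 0.365) did not pass either.

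**Figure D1:**
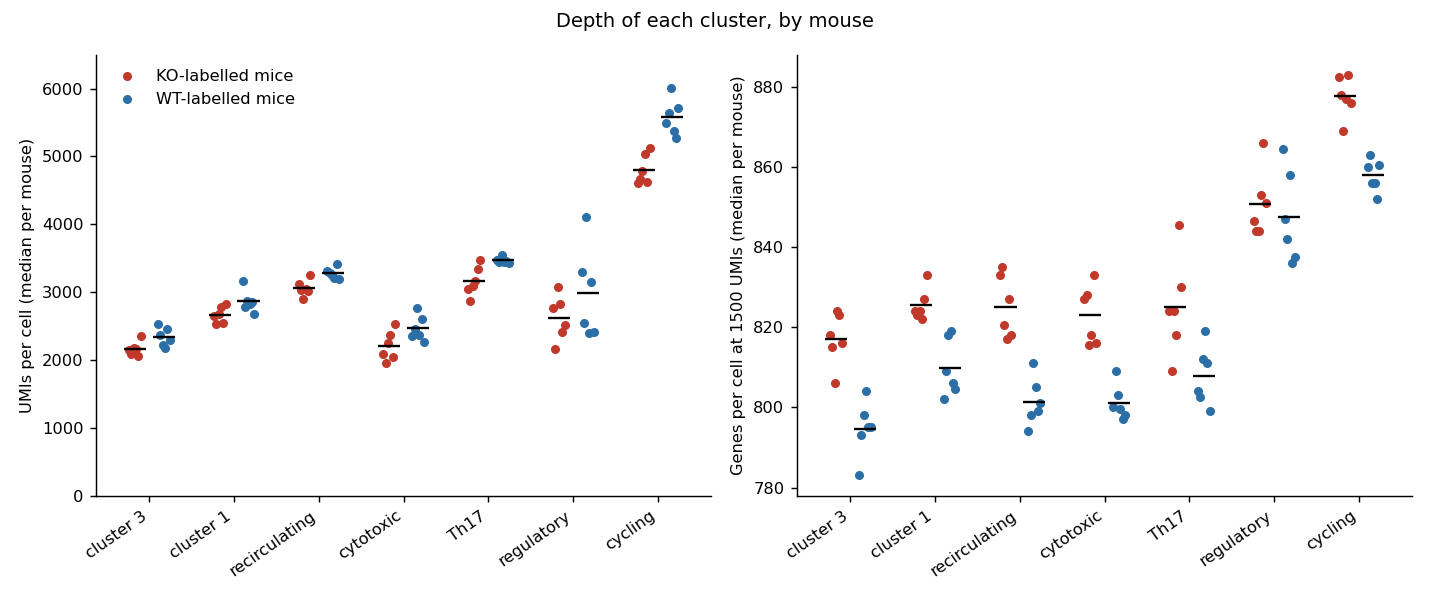
Median UMIs per cell (left, linear axis from 0) and median genes per cell after thinning each cell to 1500 UMIs (right, axis not from 0), by cluster. Each point is 1 mouse and each bar the mean of a genotype, with KO-labelled mice left of WT-labelled mice; regulatory cells numbered at least 20 in only 8 of 12 mice. Cluster 3 lies near 2165 UMIs in KO-labelled mice and 2339 UMIs in WT-labelled mice, and after thinning its genotypes do not overlap, as is also seen in cluster 1 and in recirculating, cytotoxic and cycling cells.

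Among genes with at least 100 CPM in cluster 3 that were higher there in every mouse, Il4 had the highest median ratio over the other cells of the same mouse. Il4 (chromosome 11, 53602982 to 53618669), the cytokine of type 2 helper cells, lay at 26.8, 47.1 and 115 CPM in cluster 3 of KO-labelled mice (lowest, median, highest), against 7.11, 20.2 and 30.6 CPM in their other cells. In WT-labelled mice it lay at 92.0, 135 and 278 CPM in cluster 3, against 4.81, 12.2 and 18.9 CPM in other cells. The within-mouse log2 ratio, with 10 CPM added to each value, had a median of 2.07 and was positive in 12 of 12 mice. Its median was 1.04 in KO-labelled mice and 2.75 in WT-labelled mice. In KO-labelled mice alone Il4, with a median of 47.1 CPM, lay below the 100 CPM needed, so its first place does not hold within them. These genes formed the clusters, so the ratios are descriptions without a test.

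Il4 came from a minority of the cells. After thinning to 1500 UMIs, 116 of 2078 cluster 3 cells of KO-labelled mice (5.58%) and 75 of 633 of WT-labelled mice (11.8%) had an Il4 UMI, pooled over mice. In cytotoxic cells, which should lack the gene, 0 of 733 in KO-labelled mice (which allows a share of up to 0.409%, counting error only) and 3 of 2789 in WT-labelled mice (0.108%) did, and the highest share in any other cluster was 3.83%, in cycling cells of KO-labelled mice. Unthinned, the cluster 3 shares were 7.59% and 15.9% at median depths of 2118 and 2324 UMIs, against 0.244% and 0.263% of cytotoxic cells at 2259 and 2480 UMIs. Cluster 3 held 44.0% of all Il4 UMIs of KO-labelled mice and 41.0% of those of WT-labelled mice. Cells with Il4 had Il13, its neighbour on the chromosome, more often than the remaining cluster 3 cells. Unthinned, this was 13.2% against 0.425% in KO-labelled mice, and 30.9% against 2.74% in WT-labelled mice. The Il4 cells were also deeper, with medians of 2152 against 2114 UMIs in KO-labelled mice and 2604 against 2271 UMIs in WT-labelled mice. No cell share here carries a test, since cells of a mouse are not replicates.

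Other genes at the head of the cluster were Dusp10, a phosphatase that acts on stress kinases (median log2 ratio 1.42), Ccr8, a chemokine receptor of type 2 and regulatory T cells (1.33), Tnfsf8, the ligand of CD30 (1.20), and Ramp3, which helps form receptors for adrenomedullin (1.02). Dusp10 averaged 487 ± 100 CPM in KO-labelled mice and 350 ± 93.2 CPM in WT-labelled mice within cluster 3, against 169 ± 33.3 and 117 ± 10.5 CPM in the other cells. Ccr8 averaged 197 ± 56.7 CPM in KO-labelled mice and 195 ± 49.5 CPM in WT-labelled mice within the cluster, against 74.4 ± 19.6 and 64.3 ± 6.92 CPM elsewhere. Not all of these genes were most common in cluster 3. After thinning to 1500 UMIs, pooled over mice, Ramp3 was found in 40.0% and 47.5% of Th17 cells (KO-labelled, then WT-labelled). In cluster 3 it was found in 40.5% and 41.4%. Ccr8 was found in 26.1% and 28.6% of regulatory cells, against 19.5% and 19.1% of cluster 3 cells. For Dusp10 and Tnfsf8 the share was highest in cluster 3 in both genotypes. Transcription factor genes Cebpb, Fosl2 and Fos, the mRNA decay factor gene Zfp36l2, and Neurl3, Elmsan1, Got1, Vps37b, Pik3r1 and Paxbp1 made up the rest of the 15 genes named, with medians between 0.76 and 1.02. All 15 were higher in 12 of 12 mice, by the rule that named them. That rule took genes with at least 100 CPM in cluster 3, of which 192 of 1447 were higher in every mouse, and Il4, Ccr8 and Paxbp1 passed it only through their level in cluster 3. Over the 1502 genes with at least 100 CPM in other cells, 175 (11.7%) were higher and 294 (19.6%) lower in every mouse.

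Some of these ratios changed when cells were limited to a window of depth. Among cells of 1500 to 2500 UMIs in cluster 3 and elsewhere, the median log2 ratios of Il4 (2.18), Dusp10 (1.37), Ccr8 (1.22), Tnfsf8 (1.54), Ramp3 (1.26) and Got1 (0.90) were near or above those over all cells. Those of Fos (0.45, against 0.83 over all cells), Fosl2 (0.61, against 0.97), Cebpb (0.66, against 1.02), Zfp36l2 (0.56, against 0.86), Vps37b (0.55, against 0.82) and Elmsan1 (0.72, against 0.93, and higher in only 10 of 12 mice) were lower. Within cluster 3, Fos, Junb and Malat1 were higher in the shallowest tercile of a mouse's cells than in its deepest in 12 of 12 mice, while Il13 and Plac8 were lower there in 10. Of 1502 genes, 72 were higher and 74 lower in every mouse at matched depth. The window also changes which clusters make up the other cells. In WT-labelled mouse 1, cytotoxic cells were 282 of 400 other cells there, against 584 of 1554 over all depths. In KO-labelled mouse 1, cluster 1 cells were 276 of 407, against 714 of 1188. Depth and the make-up of the other cells therefore cannot be told apart in these changes.

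At the low end stood effector and cycling genes. The 10 genes named were Il22 (median log2 ratio -4.02), Ifitm1 (-3.37), Il17a (-2.90), Ccl4 (-2.66), Stmn1 (-2.38), Hist1h2ae (-2.23), Mki67 (-1.90), Gzma (-1.88), Ifng (-1.65) and S100a4 (-1.59). Their rule took genes with at least 100 CPM in the other cells, of which 294 of 1502 were lower in every mouse. Genes such as Il22 passed it only through their level in the other cells, so these ratios are descriptions without a test. The ratios of the cycling genes Stmn1, Hist1h2ae and Mki67 came to -0.04, -0.01 and -0.20 among cells of 1500 to 2500 UMIs, but that window holds only 0 to 8 cycling cells of a mouse, against 66 to 146 over all depths, so these values say nothing of matched depth. Those of the cytokine gene Ifng (-1.90), the granzyme gene Gzma (-1.83) and Il17a (-2.16) did not come near 0 there. Ifng, the main cytokine of type 1 helper cells, averaged 214 ± 51.7 CPM in KO-labelled mice and 272 ± 119 CPM in WT-labelled mice within cluster 3, against 1052 ± 343 and 672 ± 113 CPM in other cells.

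Lists gave counts on both sides. They are to be read against the 11.7% of 1502 genes that were higher in every mouse and the 19.6% that were lower. Of 13 early activation genes with at least 100 CPM in other cells, 5 were higher in cluster 3 in every mouse, but the list's median log2 ratio of 0.18 came to -0.07 at matched depth. The Th2 and tissue repair list had only 2 genes at that level and none higher in every mouse: Areg was higher in 10 of 12 mice (0.99) and Il1r2 lower in 9 of 12 (-0.97). The follicular helper list, which also holds Il4, had 2 of 3 higher in every mouse, the costimulatory genes Icos and Cd40lg, with a median of 0.50, and 0.56 at matched depth. Of 10 galectin, S100 and annexin genes with at least 100 CPM in other cells, 8 were lower in cluster 3 in every mouse, with a median log2 ratio of -0.93 against -0.06 over all 1502 genes. For the genes of actin and cell shape this was 10 of 14 (median -0.56), for glycolysis 9 of 9 (-0.45) and for the cytotoxic list 5 of 7 (-1.01). At matched depth the medians were -0.75 for galectins and their kin, -0.39 for actin, -0.17 for glycolysis and -1.51 for cytotoxic genes. The other cells of that window held a larger share of cytotoxic cells, so these changes cannot be read as depth alone. Of 79 ribosomal protein genes, 55 were higher in cluster 3 in every mouse (median 0.18, and 0.12 at matched depth). Ribosomal protein UMIs made up 23.6% ± 0.868 of cluster 3 UMIs in KO-labelled mice and 26.3% ± 0.927 in WT-labelled mice, against 20.7% ± 0.801 and 23.4% ± 0.656 in other cells. Among stem-like and naive-memory genes, Tcf7 (0.56) and Il7r (0.40) were higher in 12 of 12 mice, and Klf2, a factor of recirculating cells, was lower in 11 of 12, at -0.80.

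Plac8, Rcbtb2 and Vav3, the genes given as markers of this cluster, did not mark it as higher in every mouse. Plac8 was lower in cluster 3 than in the other cells in 11 of 12 mice (median log2 ratio -0.78), Rcbtb2 was lower in 10 of 12 (-0.22) and Vav3 was higher in 11 of 12 (0.48). The 3 given genes were among those that differed most between genotypes within the cluster, as described below.

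**Figure D2:**
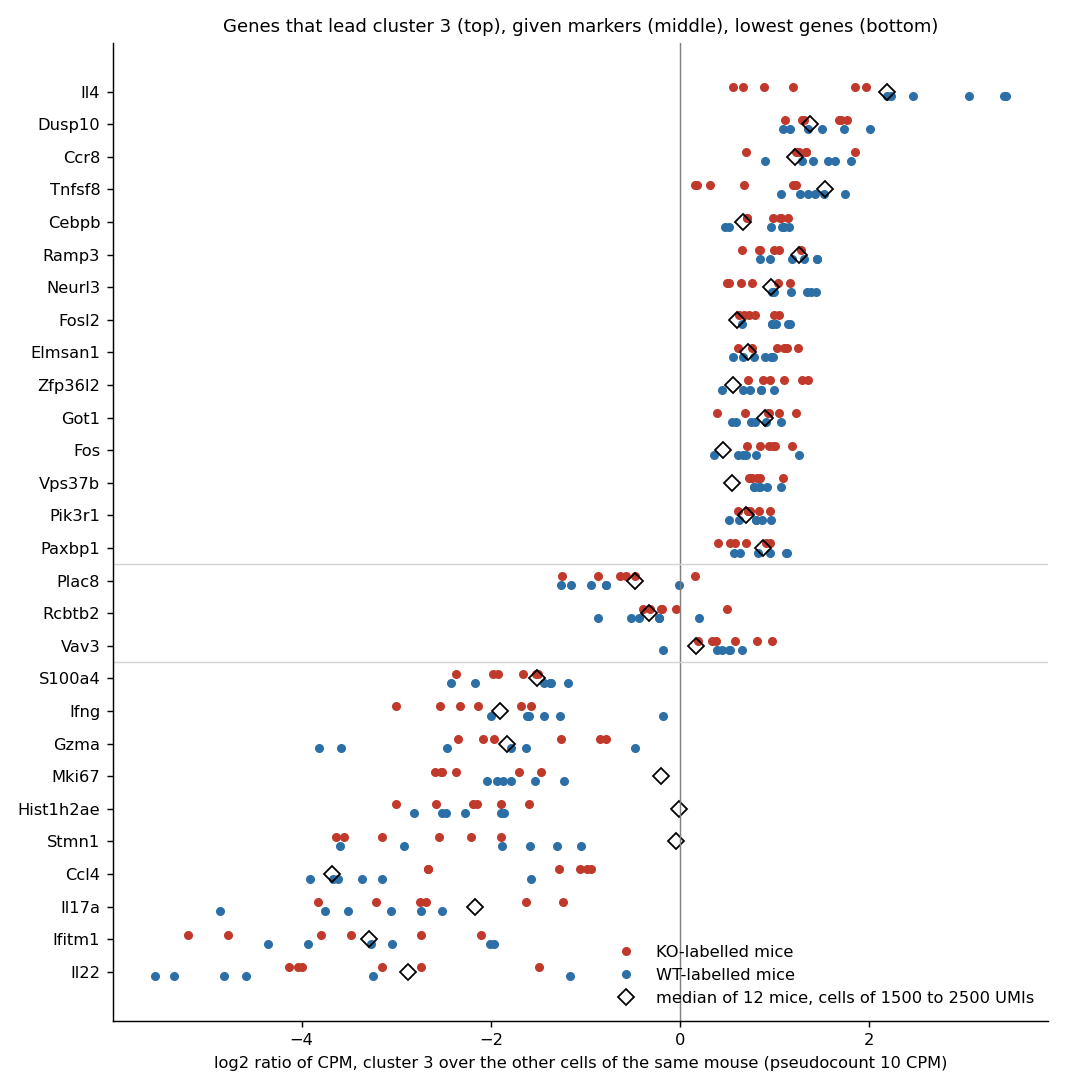
Log2 ratio of CPM in cluster 3 over the other cells of the same mouse (pseudocount 10 CPM) for the 15 genes that lead the cluster, the 3 given markers and the 10 lowest genes. Each point is 1 mouse, KO-labelled above WT-labelled in each row, and the diamond is the median of 12 mice among cells of 1500 to 2500 UMIs; Il4 has a median of 2.07 and Plac8 one of -0.78, and the diamonds of Stmn1, Hist1h2ae and Mki67 lie near 0, in a window with few cycling cells.

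Of the other clusters, cluster 3 was nearest to cluster 1, which also has no subset name, and to recirculating cells. By median over mice, 30 of 1555 genes differed at least 2-fold from cluster 1 (4 higher and 26 lower in cluster 3) and 37 of 1584 from recirculating cells (16 higher and 21 lower). The number was 62 of 1577 for cytotoxic cells, 62 of 1621 for Th17 cells, 206 of 1746 for regulatory cells and 267 of 1805 for cycling cells. Regulatory cells were compared in 8 mice and the other clusters in 12, and depth was not matched in these counts.

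Within cluster 3, the genotypes were compared on UMIs summed per mouse. The sums lay between 261000 and 1360381 UMIs in KO-labelled mice and between 201186 and 381900 UMIs in WT-labelled mice. Of 4242 genes tested, 357 (8.42%) passed an adjusted p of 0.05 in edgeR's quasi-likelihood test. Of these, 131 (3.09%) were higher and 226 (5.33%) lower in KO-labelled mice, and 158 genes (3.72%) had CPM that did not overlap between genotypes. All p-values measure the spread between mice, and whether the mice of a genotype share donors is not given.

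Among called genes with no overlap and an average log2 CPM of at least 5, Plac8, Rcbtb2 and Vav3 had the largest rises. Plac8 (chromosome 5, 100553725 to 100572245), a small cysteine-rich protein found in many leukocytes, lay at 302, 447 and 813 CPM in KO-labelled mice (lowest, median, highest), against 87.2, 113 and 224 CPM in WT-labelled mice. Every KO-labelled mouse lay above every WT-labelled mouse, and the log2 fold change was 1.73 ± 0.23 (SE, edgeR adjusted p = 9.43e-06). Rcbtb2 (chromosome 14, 73123037 to 73207843) lay at 95.8, 139 and 216 CPM in KO-labelled mice, against 34.8, 43.3 and 78.4 CPM in WT-labelled mice, a log2 fold change of 1.61 ± 0.21 (edgeR adjusted p = 9.43e-06). Vav3 (chromosome 3, 109340653 to 109685698), a signalling protein downstream of antigen receptors, lay at 45.2, 63.2 and 79.2 CPM in KO-labelled mice, against 9.94, 21.3 and 27.9 CPM in WT-labelled mice. Its log2 fold change was 1.55 ± 0.23 (edgeR adjusted p = 4.01e-05), again with no overlap. In the shares of cells with a UMI, thinned to 1500 UMIs, Plac8 was found in 37.3% ± 12.1 of cells in KO-labelled mice and 10.5% ± 2.82 in WT-labelled mice. For Rcbtb2 it was 18% ± 4.43 against 6.92% ± 2.22, and for Vav3 9.29% ± 2.37 against 2.99% ± 1.28 (exact permutation p = 0.00216 for each, adjusted p = 0.00649 over 12 genes). Unthinned means were 42.2% and 12.7% for Plac8, 23.7% and 9.75% for Rcbtb2, and 12.7% and 4.98% for Vav3.

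The other 9 of the 12 largest rises without overlap lay between 1.10 and 1.45 on the log2 scale. They were St8sia1, a sialyltransferase gene (1.45 ± 0.20), Man1a, a mannosidase of glycan processing (1.39 ± 0.24), Klf3, a transcription factor of the Kruppel-like family (1.38 ± 0.18), Lgals3, which encodes galectin-3 (1.28 ± 0.16), and Sept11, Emp1, Ifi208, Me2 and Tmem154. Klf3 averaged 218 ± 37.7 CPM in KO-labelled mice and 86.7 ± 38.7 CPM in WT-labelled mice. Lgals3 averaged 329 ± 47.5 CPM in KO-labelled mice and 135 ± 57.9 CPM in WT-labelled mice. In the other cells, Klf3 averaged 118 ± 19.1 CPM in KO-labelled mice and 90.3 ± 17.2 CPM in WT-labelled mice, and Lgals3 691 ± 93.5 and 350 ± 98.9 CPM. Cd4, the coreceptor used in the sort, rose by less but with little spread: 627 ± 29.2 CPM in KO-labelled against 391 ± 22.9 CPM in WT-labelled mice, a log2 fold change of 0.61 ± 0.08 (edgeR adjusted p = 6.9e-06).

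Genes of type 2 helper cells and tissue repair fell together. All 7 tested genes of that list were lower in KO-labelled mice, against 5.33% of all genes tested, with a median log2 fold change of -1.85 against 0.00 over all genes tested. The list was chosen with earlier results of these data known, so this count is a description and not a test. Il1r2 (chromosome 1, 40074079 to 40125231), a decoy receptor for IL-1, lay at 3.83, 14.5 and 33.9 CPM in KO-labelled mice (lowest, median, highest), against 39.8, 112 and 251 CPM in WT-labelled mice. Its log2 fold change was -2.75 ± 0.31 (edgeR adjusted p = 4.36e-06). Areg (chromosome 5, 91139599 to 91148432), which encodes amphiregulin, lay at 81.8, 218 and 442 CPM in KO-labelled mice, against 451, 882 and 1173 CPM in WT-labelled mice. The groups came close but did not overlap, and the log2 fold change was -1.96 ± 0.25 (edgeR adjusted p = 6.34e-06). Il13 (chromosome 11, 53631324 to 53634702) lay at 0, 21.7 and 41.8 CPM in KO-labelled mice, against 60.7, 78.8 and 150 CPM in WT-labelled mice, a log2 fold change of -1.85 ± 0.29 (edgeR adjusted p = 9.33e-05). The mouse at 0 was KO-labelled mouse 4.

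In the other 4 genes of the list the genotypes overlapped. Il4 averaged 58.9 ± 34.1 CPM in KO-labelled mice and 153 ± 66.4 CPM in WT-labelled mice (log2 fold change -1.29 ± 0.26, edgeR adjusted p = 0.00147), with KO-labelled mouse 5 at 115 CPM inside the WT-labelled range. Gata3, the factor that directs type 2 cells, averaged 73.6 ± 8.78 CPM in KO-labelled mice and 133 ± 40.7 CPM in WT-labelled mice (-0.92 ± 0.16, edgeR adjusted p = 0.000206). Ccr4, a chemokine receptor of the same cells, fell by 0.86 ± 0.20 on the log2 scale (edgeR adjusted p = 0.00624). Penk, the precursor of enkephalins, averaged 18.3 ± 30.5 CPM in KO-labelled mice and 206 ± 174 CPM in WT-labelled mice (-4.38 ± 0.50, edgeR adjusted p = 4.36e-06), and KO-labelled mouse 4, at 80.5 CPM, lay above the 2 lowest WT-labelled mice, at 46.2 and 79.5 CPM. Among cells of 1500 to 2500 UMIs, 4 genes of the list were tested and 3 fell. All 7 also fell when KO-labelled mice 1 and 2, those with the largest shares of cluster 3, were left out.

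The remaining 9 of the 12 largest falls without overlap were Fam46a (-1.69 ± 0.20), Rilpl2 (-1.63 ± 0.20), Cd7, a surface glycoprotein of T cells (-1.49 ± 0.20), Fas, the death receptor (-1.43 ± 0.23), Nt5e, the ectoenzyme CD73 (-1.34 ± 0.23), Tmem176a (-1.33 ± 0.17), Cd160 (-1.28 ± 0.24), Tnfrsf25 (-1.24 ± 0.22) and Batf, an AP-1 factor of effector T cells (-1.14 ± 0.16). Cd7 averaged 55.8 ± 21.7 CPM in KO-labelled mice and 137 ± 28.2 CPM in WT-labelled mice. Fas averaged 34.2 ± 13.3 CPM in KO-labelled mice and 81.9 ± 22.4 CPM in WT-labelled mice.

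**Figure D3:**
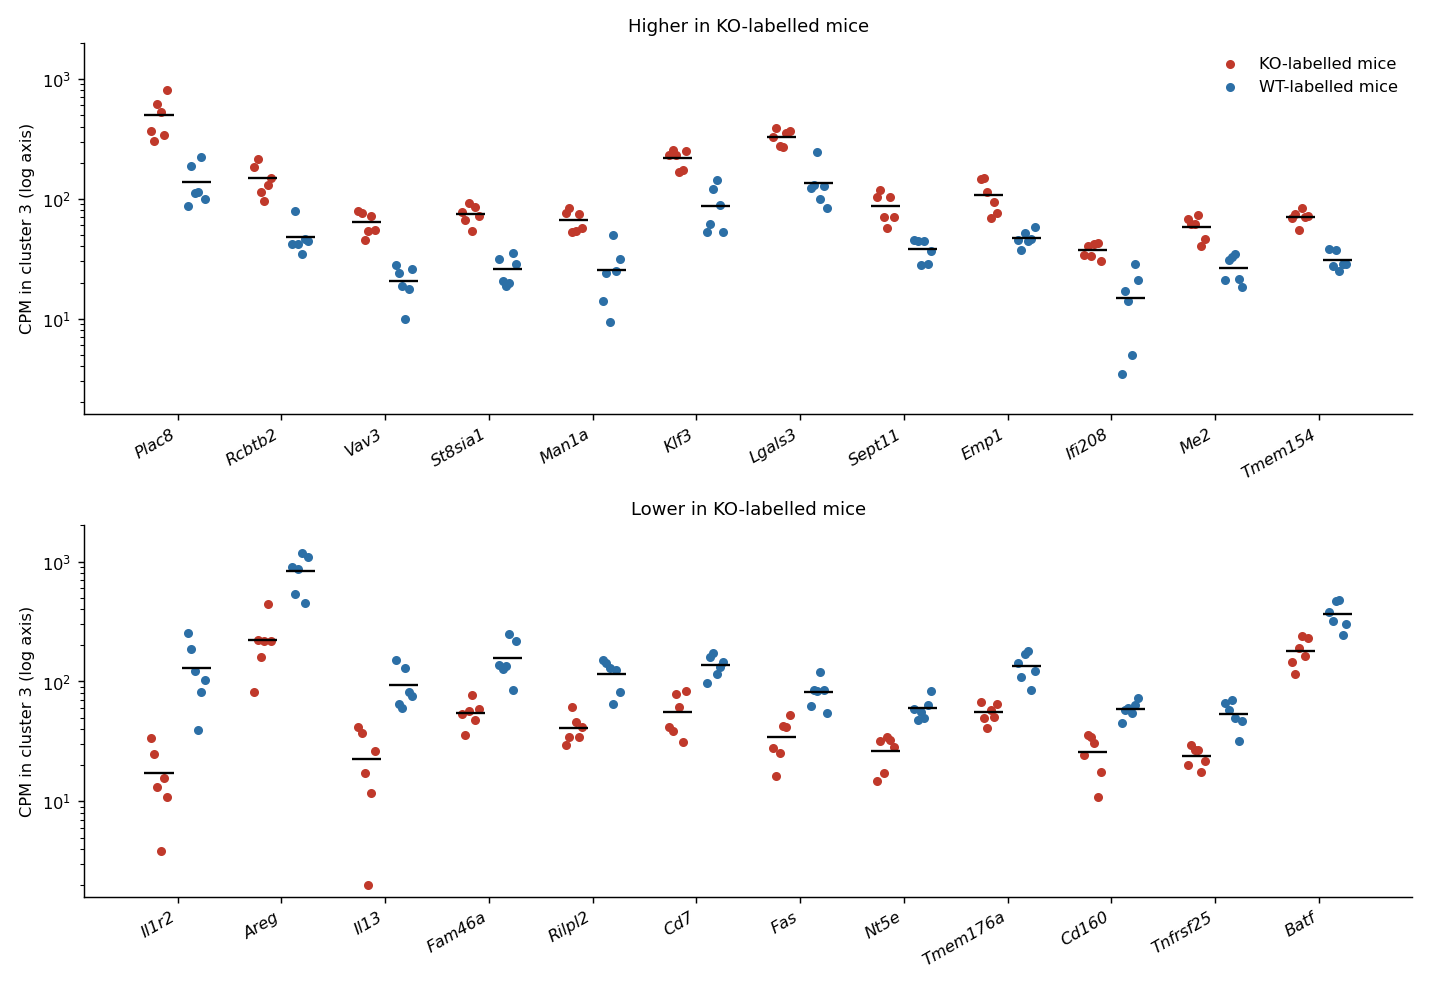
CPM in cluster 3 (log axis) for the 12 largest rises (top) and the 12 largest falls (bottom) among called genes without overlap, KO-labelled mice left of WT-labelled mice. Each point is 1 mouse and each bar the mean of 6; the value of 0 of Il13 in KO-labelled mouse 4 is drawn at the foot of the axis, and by the rule that chose the genes their groups do not overlap.

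Counts for other lists are to be read against the 5.33% of all genes tested that fell and the 3.09% that rose. In the Treg list, 4 of 6 tested genes fell and none rose (median -0.68): Tnfrsf4, encoding OX40 (-0.76 ± 0.09), Tnfrsf18, encoding GITR (-0.36 ± 0.07), Tnfrsf9, encoding 4-1BB (-0.66 ± 0.14), and Il2ra (-0.81 ± 0.24). At matched depth 2 of 4 tested fell. All 4 genes named are also induced in activated T cells, and Foxp3 was too low to be tested. In the Th17 list, Rora (-0.52 ± 0.06), Tmem176a and Tmem176b (-1.07 ± 0.14) fell, 3 of 5 tested (median -0.52). In the early activation list, 5 of 15 fell and none rose (median -0.05), among them the phosphatase gene Dusp2 and the AP-1 gene Jun. Of 3 tested inhibitory receptor genes, Tigit (-1.03 ± 0.17) and Cd160 fell. The stem-like and naive-memory list had 1 change in 9 (median -0.04), a share near the 8.42% over all genes; Satb1 fell (-0.65 ± 0.11), and Tcf7, at 160 ± 31.4 CPM in KO-labelled mice and 170 ± 33.8 CPM in WT-labelled mice, did not pass.

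Of 15 tested Th1 genes, Il12rb2, a chain of the IL-12 receptor (0.76 ± 0.15), and Fasl (0.44 ± 0.12) rose and none fell (median 0.01), and at matched depth none of 14 tested passed in edgeR's test. The survival list had 2 rises, among them the pro-apoptotic Bcl2l11 (0.64 ± 0.12), and 2 falls in 12 (median 0.03). Lmna, which encodes lamin A, rose by 1.85 ± 0.38 (edgeR adjusted p = 0.00159), but its KO-labelled mice ran over 43.6, 200 and 359 CPM (lowest, median, highest) and overlapped the WT-labelled range of 44.5 to 88.7 CPM. It and Capg were the 2 changes among 14 genes of actin and cell shape (median 0.05). Of 81 ribosomal protein genes, 52 fell and none rose (median -0.22), and 20 did so among cells of 1500 to 2500 UMIs (median -0.14). The share of ribosomal protein UMIs was also lower in the other cells of KO-labelled mice, as given above.

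The genotype effect was then set against that in cluster 1 and in recirculating cells of the same mice, with limma, using each mouse's own difference of log2 CPM. No gene passed an adjusted p of 0.05, of 5741 against cluster 1 (0%) and of 7814 against recirculating cells (0%). At an unadjusted p of 0.05 there were 394 (6.86%) and 595 (7.61%) genes. An edgeR interaction term with the mouse as a block, chosen after seeing the data, called 34 and 50 genes, so the count of 0 depends on the tool. Of the 12 largest rises and 12 largest falls without overlap, that term called Plac8, Lgals3, Il1r2 and Rilpl2 against cluster 1. Of the same genes it called Rcbtb2, St8sia1, Klf3, Emp1, Lgals3, Il1r2, Areg, Il13, Rilpl2 and Fam46a against recirculating cells. Il13 was too low to be tested in recirculating cells alone. There, 26 of 1993 cells of KO-labelled mice and 17 of 2299 of WT-labelled mice had an Il13 UMI, unthinned. It entered that fit through its level in cluster 3, so its call cannot show an effect that differs between the clusters. Other genes the interaction term called include Gata3 and Tnfrsf9 in both, Tnfsf8, Tnfrsf4 and Il22 against cluster 1, and Dusp2, Tnfrsf18 and Got1 against recirculating cells. Il22 was too low to be tested in cluster 3 alone, so its call cannot show an effect that differs between the clusters either. The genotypes in the 3 clusters share their mice, so the values are given side by side. Plac8 had log2 fold changes of 1.73 ± 0.23 in cluster 3, 0.70 ± 0.15 in cluster 1 and 1.47 ± 0.10 in recirculating cells. Il1r2 had -2.75 ± 0.31, -0.64 ± 0.23 and -1.10 ± 0.15 in the same order. Gata3 had -0.92 ± 0.16, 0.54 ± 0.17 and 0.03 ± 0.13, and of these only the first passed (edgeR adjusted p = 0.000206, 0.0801 and 0.965). For Gata3 the difference from cluster 1 was -1.35 by limma (adjusted p = 0.0610).

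**Figure D4:**
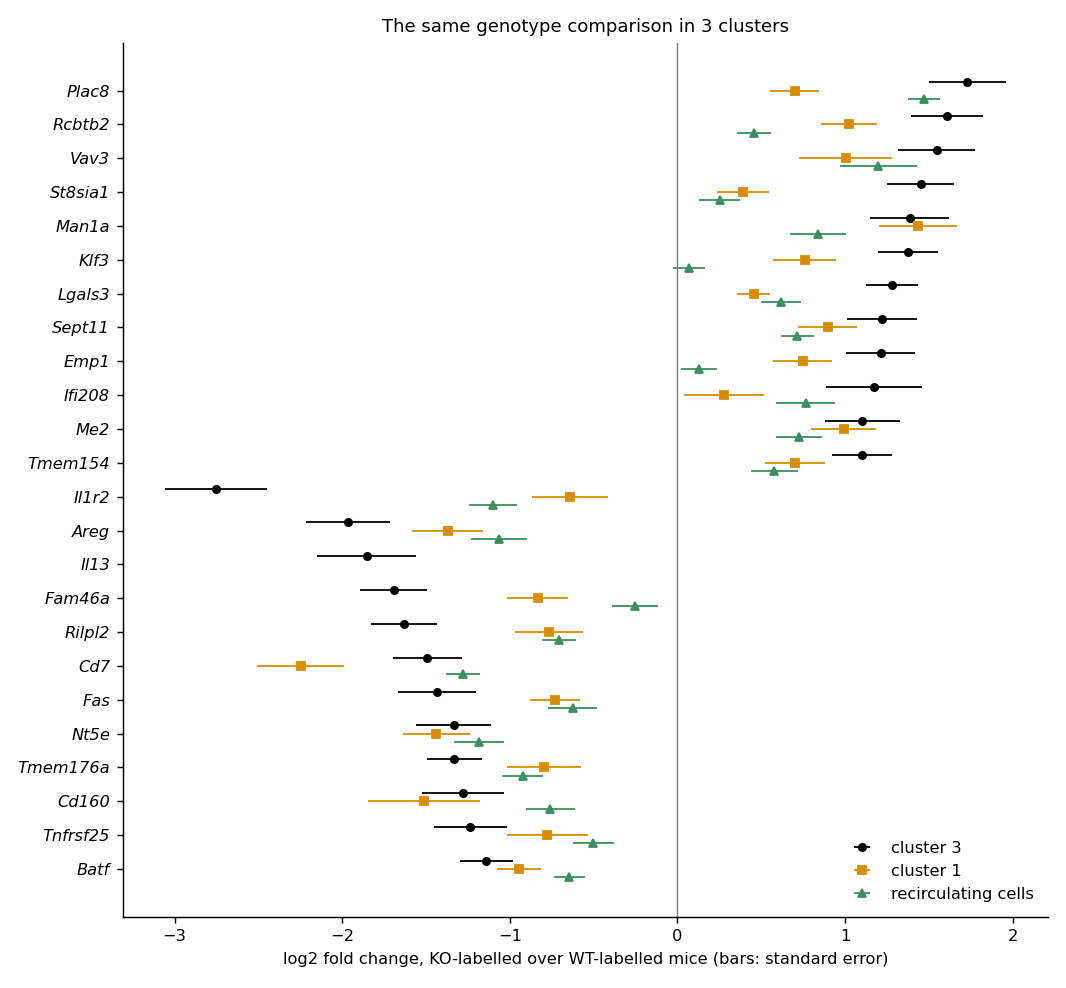
Log2 fold change, KO-labelled over WT-labelled mice, with its standard error, for the 12 largest rises and 12 largest falls of cluster 3, beside the same comparison in cluster 1 and in recirculating cells. Il13 was tested only in cluster 3; the genes were chosen in cluster 3, and Cd7 has a larger fall in cluster 1 (-2.25) than in cluster 3 (-1.49).

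T cell receptor sequences were given for 2370 cluster 3 cells. Receptor segment genes are also among the counted genes, and whether they took part in forming the clusters was not checked. In KO-labelled mouse 5 a single beta chain stood out: 103 of its 485 cluster 3 cells carried the same CDR3, the loop that contacts the antigen. Those cells fell into 2 deposited clonotypes, of 79 cells with an alpha chain and of 24 cells with none given. The nucleotide sequences of this pair, of the next largest clone of the same mouse and of the largest clone of a WT-labelled mouse are shown because these clones hold the most cluster 3 cells; capitals mark the first and last codon of each CDR3.
KO-labelled mouse 5, clone 1, TRA: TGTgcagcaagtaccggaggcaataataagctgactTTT
KO-labelled mouse 5, clone 1, TRB: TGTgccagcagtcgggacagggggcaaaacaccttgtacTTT
KO-labelled mouse 5, clone 2, TRB: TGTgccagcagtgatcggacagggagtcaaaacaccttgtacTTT
WT-labelled mouse 1, clone 3, TRB: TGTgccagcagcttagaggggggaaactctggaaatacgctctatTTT
Each of these beta chains was found in 1 mouse. Clone 1 had 79 of its 121 cells in cluster 3 (65.3%), 19 in recirculating cells and 11 each in cluster 1 and cycling cells. Clone 3 had 28 of its 235 cells in cluster 3 (11.9%), beside 89 in cytotoxic and 56 in recirculating cells. Without the cells that share the beta chain of clone 1, 371 genes were called between genotypes, 350 of them among the 357.

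Cells of cluster 3 had a clonotype less often than the other cells of their mouse, 81.8% ± 4.77 against 86.7% ± 2.79 (SD, n = 12 mice), lower in 11 of 12 mice (exact sign-flip test, two-sided p = 0.000977, adjusted p = 0.00293 over 3 measures). Among cells of 1500 to 2500 UMIs the difference was -0.724 percentage points and did not pass (exact p = 0.486). Typed cells of cluster 3 were less often in clones of 2 or more cells, 68.9% ± 7.16 against 75.5% ± 5.79, lower in 10 of 12 mice (exact p = 0.00781, adjusted p = 0.0117). Among cells of 1500 to 2500 UMIs, with clone sizes counted there alone, the difference was -8.50 points (exact adjusted p = 0.0117). The other cells of that window held a larger share of cytotoxic cells, so depth was not all that changed in either difference. With clones defined by the beta chain alone, over all depths, the difference in expanded clones was -4.38 points and did not pass (exact p = 0.0747). The share in clones that also had cells in another cluster was 63.4% ± 8.88 for cluster 3, against 64.5% ± 7.81 for other cells (exact p = 0.568). Between genotypes, none of the 3 measures passed: 79.2% ± 5.41 of cells were typed in KO-labelled mice and 84.4% ± 2.18 in WT-labelled mice (exact permutation p = 0.0628), and 66.7% ± 5.94 against 71.0% ± 8.15 were in clones of 2 or more (exact p = 0.327).

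Clones with a cluster 3 cell had their other cells in cluster 1 more often than clones of 2 or more cells without one. The mean share was 29.9% ± 20.5 with and 25.8% ± 20.4 without (SD, n = 12 mice), a difference of 4.07 points, higher in 10 of 12 mice (exact sign-flip p = 0.00537, adjusted p = 0.0161 over 6 clusters). Their share in regulatory cells was lower, 0.409% ± 0.640 against 3.56% ± 3.54, in 11 of 12 mice (exact adjusted p = 0.0117), and that in cycling cells was higher by 1.68 points in 9 of 12 mice (exact adjusted p = 0.0381). The shares in cytotoxic cells (-5.22 points, lower in 8 of 12 mice, exact adjusted p = 0.0813), in recirculating cells (3.35 points, higher in 9 of 12, exact adjusted p = 0.111) and in Th17 cells (-0.73 points, exact adjusted p = 0.670) did not pass. These comparisons were chosen after their values were seen, and clone size was not matched in them.

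**Figure D5:**
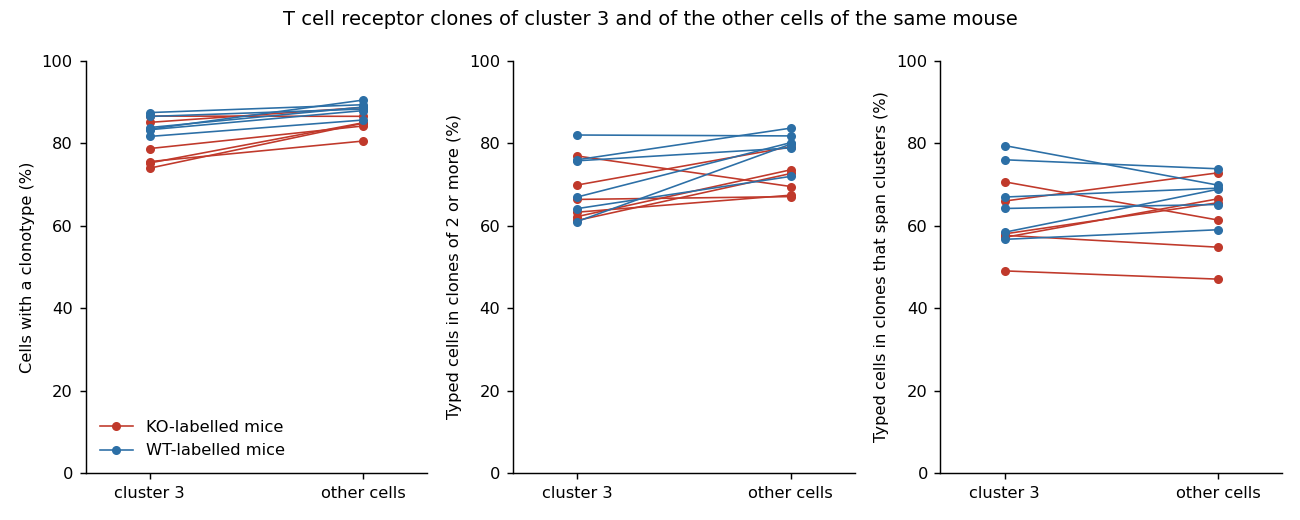
Percent of cells with a clonotype (left), of typed cells in clones of 2 or more cells (middle) and of typed cells in clones that span clusters (right), for cluster 3 and for the other cells of the same mouse. Each line is 1 mouse; the left measure is lower in cluster 3 in 11 of 12 mice, the middle one in 10 of 12, and the right one in 7 of 12.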

How the data were processed

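Per the labels' protocols, sorted colonic T cells were run on 10x Genomics 5′ chemistry with hashtag antibodies; the tools Cell Ranger 3.1.0 and Seurat 3.1.5 and the build GRCm38 are named in the submitters' processing notes. The deposited table holds the authors' UMI counts, not normalized, of 18860 cells over 11971 genes, with an annotation by the authors that holds the cluster, mouse, clonotype, a doublet score and the percent of mitochondrial UMIs of each cell. Doublets were not called again, since no deposited score was above 0.354. No cell barcode was found more than once.

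UMIs were summed per mouse, the replicate, and tested with edgeR 4.0.16 (TMM, filterByExpr, no covariates, Benjamini-Hochberg over all genes tested). Differences between clusters used limma 3.58.1 on within-mouse log2 CPM differences, needing 20 cells per mouse and cluster. Single values used exact permutation over the 924 assignments of mice, or sign flips over 12 mice, all two-sided. Shares of cells with a UMI used cells thinned to 1500 UMIs. DESeq2 1.42.0 was an alternative. Coordinates are those of GENCODE M21 (GRCm38). The scripts were tested on simulated data.

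Named genes were, for the cluster, the 15 highest and 10 lowest within-mouse ratios among genes of at least 100 CPM with the same sign in every mouse, and, between genotypes, the 12 largest rises and falls with adjusted p under 0.05, an average log2 CPM reaching 5 and no overlap. Receptor segments and unnamed gene models were passed over. Of each list, up to 4 genes with the smallest p were named. Gata3, Ccr4, Bcl6, Foxp3, Cd8a, Klf2 and, between genotypes, Tcf7 fall outside these rules and were chosen after their values were seen. Mice are numbered by their hashtag. Members, lists and rules were chosen with earlier results of these data known. Lists were described by counts and medians, and carry no test of their own.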

Additional observations from a re-analysis of the deposited data

Results flagged for a closer look

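Among 140 groups of 6 mice looked at for cluster 3, 10 had a mouse whose gap to its nearest neighbour was large against the range of its group, where chance alone flags about 1 group in 20. KO-labelled mouse 6 had the highest median number of genes per cell, 1147 against 1053 in the next KO-labelled mouse. It also had the highest Mki67, at 39.3 CPM against 22.1 CPM, and the highest Il22, at 67.6 CPM against 21.8 CPM. KO-labelled mouse 3 had Il17a at 43.9 CPM, against 16.9 CPM in the next.

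Among WT-labelled mice, mouse 4 had Il4 at 278 CPM, against 160 CPM in the next, so the highest Il4 level of all mice is that of 1 mouse. Mouse 2 had Rcbtb2 at 78.4 CPM, against 46.2 CPM in the next, which is the WT-labelled value nearest to the KO-labelled mice. It also had Ifitm1 at 37.5 CPM, against 5.24 CPM. Mouse 3 had Lgals3 at 247 CPM, against 129 CPM. Mouse 1 had Il22 at 216 CPM, against 57.6 CPM, and mouse 6 had Ccl4 at 123 CPM, against 41.9 CPM.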

How the results depend on the processing

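The 357 genes called between genotypes in cluster 3 came to 165 among cells of 1500 to 2500 UMIs, where 2683 genes were tested (66 higher and 99 lower in KO-labelled mice, 144 of them among the 357), and to 203 without KO-labelled mice 1 and 2 (59 higher and 144 lower). With no filter on low counts 46.2% of the calls were higher in KO-labelled mice, against 36.7%, as 195 higher and 227 lower. Leaving out each mouse in turn gave 276 to 397 calls. All 24 genes named between genotypes kept their direction in every setting where they were tested. Of these, 10 (Vav3, St8sia1, Ifi208, Me2, Il1r2, Il13, Fas, Nt5e, Cd160 and Tnfrsf25) had too few counts to be tested among cells of 1500 to 2500 UMIs, and Man1a (1.01) and Tmem154 (0.69) did not pass there. Against cluster 1, the 0 calls became 34 with the edgeR interaction term and 0 to 3 with each mouse left out, and against recirculating cells 50 with that term. Genes higher in cluster 3 in every mouse numbered 72, and lower 74, among cells of 1500 to 2500 UMIs.

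With the mean in place of the median, UMIs per cell (-186) and percent mitochondrial (-0.0780) passed between genotypes; with each mouse left out they ranged from -213 to -135 and from -0.0782 to -0.0520, and passed without WT-labelled mouse 4 (both) or KO-labelled mouse 6 (UMIs). Genes per cell ranged from -34.9 to -9.43 without thinning and from 20 to 24.5 with it, and the doublet score from -0.0102 to -0.00345. Clonotype differences from other cells in cells of 1500 to 2500 UMIs were -0.724 points for typed cells, which did not pass, and 1.84 points for shared clones, with the sign turned and neither passing; with clones by TRB sequence that for expanded clones was -4.38 and did not pass. In the shares of cells with a UMI, Tcf7 turned sign when thinned to 1000 UMIs (-0.746), unthinned (-2.98) and without WT-labelled mouse 6 (-0.557, in a range of -0.557 to 1.95 with each mouse left out), Ifng when thinned to 1000 (-0.481) and Ccl5 without WT-labelled mouse 3 (0.115, in a range of -5.19 to 0.115); none of these passed in any setting. The cause of these changes was not tested. No paired analysis was possible because the mice carry only hashtag numbers, none shared between genotypes. WT-labelled sums of 201186 to 381900 UMIs limit what can be tested: 4242 of 11971 genes passed the filter.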

Other observations

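Shares of cells with a UMI were taken for 12 genes. Cd4 was found in 58.9% ± 1.23 of thinned cluster 3 cells in KO-labelled mice and 43.7% ± 4.29 in WT-labelled mice (SD over 6 mice of each genotype; adjusted p = 0.00649 by exact permutation), with no overlap. Lgals1, encoding galectin-1, was found in 59.9% ± 4.57 and 48.9% ± 3.21 (adjusted exact p = 0.0104), and not past the threshold when unthinned (adjusted exact p = 0.0891). Itsn1, an exchange factor for Cdc42, was found in 3.29% ± 1.90 and 0.793% ± 0.736 (adjusted exact p = 0.0173). Lmna was found in 17.3% ± 11.3 and 7.18% ± 1.50 and did not pass (adjusted exact p = 0.108), with KO-labelled mouse 6 at 4.65% below every WT-labelled mouse.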
